A study of Mus musculus with 7 samples.

Results

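Exons are the parts of a gene that remain in the mature transcript, and the exon sites described here are single cytosine positions that the deposited annotation places in an exon and outside both CpG islands and their shores. The rule for membership reads these annotation labels and no methylation value, although the class itself was picked with earlier results of these data known. They were 1256 of the 18189 sites in a table of 6 libraries (the rescue table) and, apart from these, 1432 of the 21989 sites in a table of 3 libraries (the knockdown table). The tables shared 785 of these exon sites, 62.5% of the first set and 54.8% of the second.

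CpG islands are short CG-dense stretches, often at promoters, that usually carry little methylation, and shores are their flanks. Most CpG sites elsewhere in a mammalian genome, including those inside gene bodies, are methylated. After replication only the old strand carries the mark: UHRF1 binds such hemimethylated DNA and brings in DNMT1, the maintenance methyltransferase, which copies the mark to the new strand. MOF, encoded by Kat8 in the mouse, is a lysine acetyltransferase best known for acetylating histone H4.

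All 7 libraries were reduced representation bisulfite sequencing of J1 mouse embryonic stem cells, kept on gelatin in medium with serum and leukemia inhibitory factor. The groups were wild type (2 libraries), Uhrf1-/- (2 libraries), Uhrf1-/- cells given wild-type human UHRF1 (wild-type rescue, 1 library), Uhrf1-/- cells given human UHRF1 with the lysine-to-arginine changes K667R, K668R and K670R (3KR rescue, 1 library), and a stable Mof knockdown (1 library). Per the series text, transgenes were tagged with flag and myc, transfected cells were selected with hygromycin, and single colonies were picked, so each rescue library stands for a clone chosen in this way. The title sets the question as the bearing of UHRF1 acetylation by MOF on methylation maintenance. Bisulfite reads measure neither UHRF1 nor MOF, so the amounts of these proteins, the knockdown and the cell type could not be checked here. Whether the libraries of one group were grown as separate cultures is not stated in the labels, and p-values therefore reflect only how far these libraries differ, possibly for technical reasons.

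The exon sites of the rescue table lay in short clusters. Chaining sites at gaps of at most 100 bp gave 521 chains, of which 208 held a single site and 195 held at least 3, up to 11. RefSeq gene spans (GRCm38.p6, the same build as mm10) placed 1179 sites in 1 gene, 19 in overlapping genes and 58 in none, over 459 genes. The deposited annotation listed 340 of the 1256 sites as intron as well, as transcripts of a gene can differ. Distance to the listed transcript start ran from 1002 to 125654 bp, with a median of 4197 bp.

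Among sites whose place in a gene could be scored, exon sites gathered toward the 3′ end. When each gene was cut into 3 equal parts, 606 of 914 exon sites (66.3%) fell in the part nearest the 3′ end, against 33.4% of intron sites outside islands and shores. In the knockdown table these shares were 70.1% and 32.9%. These positions describe which sites the assay covered and were not tested.

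The exon sites summed to 12725 and 21232 reads for wild type, 19668 and 15408 for Uhrf1-/-, 30603 for the wild-type rescue and 18104 for the 3KR rescue. Median reads per site ran from 8 to 18. In the knockdown table wild type had 15173 and 24066 reads and the Mof knockdown 15961. At such depths a single site is coarse: 227 exon sites were at least 20 percentage points lower and 284 at least 20 points higher in the second wild-type library than in the first, 18.1% and 22.6% of members. Between the Uhrf1-/- libraries these shares were 12.6% and 15.3%. Means over all exon sites varied far less between libraries of a group, as given next.

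Exon sites were highly methylated in wild type and lost most of it without Uhrf1. The mean methylation level over the 1256 sites was 66.6% and 68.3% in the wild-type libraries (67.5 ± 1.22, SD, n = 2) and 13.0% and 13.5% in Uhrf1-/- (13.3 ± 0.31, SD, n = 2), so 19.6% of the wild-type level was left. The wild-type rescue stood at 62.3% and the 3KR rescue at 20.9%. The wild-type rescue thus regained 90.4% of the lost level and the 3KR rescue 14.1%. These shares were 87.3% and 14.6% at intron sites outside islands and shores, and 86.6% and 13.5% at such intergenic sites. The difference between wild type and Uhrf1-/- was far larger than the spread within either group, but 2 libraries against 2 cannot reach significance in an exact permutation test, so library means were not tested.

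The shift ran through the whole distribution of sites. Sites over 80% methylated made up 45.5% and 46.9% of exon sites in the wild-type libraries, 0.56% and 0.32% in Uhrf1-/-, with 35% for the wild-type rescue and 1.75% for the 3KR rescue. Sites under 20% went the other way, from 14.8% and 12.7% in wild type to 73.3% and 70.5% in Uhrf1-/-, with 13.9% for the wild-type rescue and 54.4% for the 3KR rescue. Intermediate levels were most frequent in the rescues: 51.1% and 43.9% of sites lay between 20% and 80%, against 39.6% and 40.4% in wild type.

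**Figure D1:**
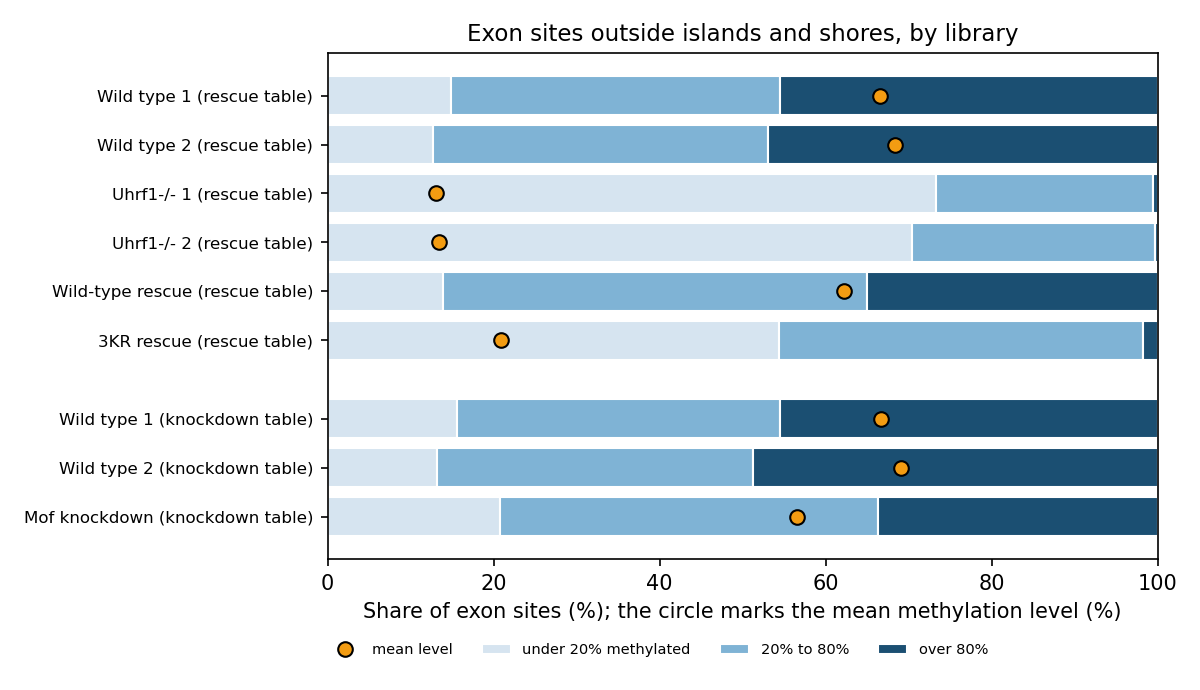
Share of exon sites (x axis, %) under 20%, between 20% and 80% and over 80% methylated in each library (y axis), with the mean level as a circle on the same scale. The upper 6 bars are the 1256 sites of the rescue table and the lower 3 the 1432 sites of the knockdown table; the dark part falls from 45.5% and 46.9% in wild type to 0.56% and 0.32% in Uhrf1-/- and reaches 35% in the wild-type rescue.

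Exon sites had higher levels than the other annotation classes outside islands and shores, by a little against introns and by much against promoters. Exon minus intron was 2.22 and 2.16 points in wild type, 0.12 and 0.03 points in Uhrf1-/-, with 3.63 points for the wild-type rescue and 0.15 points for the 3KR rescue, a mean of 1.38 ± 1.503 points (SD, n = 6 libraries). Exon minus intergenic averaged 2.18 ± 1.52 points, and exon minus promoter 9.17 ± 5.53 points, the latter from 3.46 points in a Uhrf1-/- library to 15.4 points in a wild-type library. Each of these was positive in 6 of 6 libraries (exact sign-flip permutation test, two-sided, p = 0.03125, which is the smallest 6 libraries can give; Benjamini-Hochberg adjusted p = 0.03125 over the 3 classes). All libraries measured the same sites, so the test speaks to these sites only. With at least 10 reads in every library the same differences were 3.11, 5.27 and 10.7 points, with adjusted permutation p of 0.156, 0.094 and 0.094. In Uhrf1-/- and the 3KR rescue the exon-intron gap was smaller than the 0.43 points between the Uhrf1-/- libraries.

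**Figure D2:**
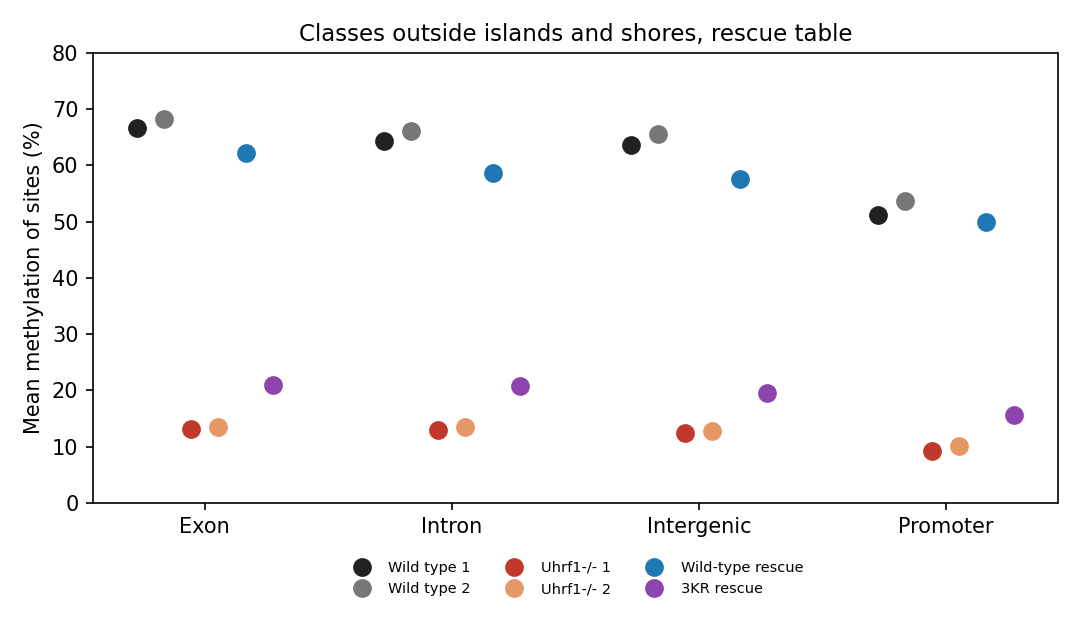
Mean methylation level (y axis, %) of exon, intron, intergenic and promoter sites outside islands and shores (x axis), 1 circle for each of the 6 libraries of the rescue table. Exon sites stand 2.22 and 2.16 points above intron sites in wild type and 0.12 and 0.03 points above them in Uhrf1-/-, while promoter sites are lowest in every library.

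A mean gap to introns was also present inside genes in wild type and the wild-type rescue, though its size depended on the measure and the genes. In 183 genes with both exon and intron sites in the rescue table, the mean over genes of exon minus intron was 7.13 and 6.77 points in wild type and 4.77 points in the wild-type rescue. It was -0.605 and 2.34 points in Uhrf1-/- and -1.96 points in the 3KR rescue. The medians over genes were 0.93 and 3.71 points in wild type and 5.29 points in the wild-type rescue. In the knockdown table, over 209 genes, the same wild-type libraries had means of 3.35 and 3.58 points (medians 3.61 and 4.52). The Mof knockdown had a mean of 5.77 points there (median 5.27). In single genes the sign varied: exons were the higher in 92 and the lower in 74 of the 183 genes in the first wild-type library. These within-gene values were not tested.

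By distance from the listed transcript start, the farthest exon sites had the highest wild-type level, while levels in Uhrf1-/- were close together. The 276 exon sites at least 10 kb from the listed start averaged 74.8 ± 1.56% in wild type (SD, n = 2), against 63.1 ± 1.93% for the 270 sites at 1 to 2 kb, 68.2 ± 0.19% for the 417 sites at 2 to 5 kb and 63.6 ± 1.70% for the 293 sites at 5 to 10 kb. In Uhrf1-/- the 4 distance classes lay between 12% and 15.7%. The 3KR rescue regained 6.06% of the loss at 10 kb or more and 15.9% to 17.1% in the other classes. Sites annotated only as exon stood at 68.4 ± 1.37% in wild type and 12.8 ± 0.13% in Uhrf1-/-, and sites also listed as intron at 64.9 ± 0.80% and 14.5 ± 0.78%.

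Site by site, the loss without Uhrf1 was nearly in 1 direction. The change averaged -54.2 points (median -60.8). It was at least 20 points lower at 1046 exon sites (83.3%) and at least 20 points higher at 4. Of all sites in that data set, 61.5% were lower and 0.346% higher by this size. The mean change was negative on 19 of 19 autosomes, between -62.2 and -43.4 points. Reads with and without the mark were tested with edgeR (quasi-likelihood), and a call had to pass 0.05 after Benjamini-Hochberg adjustment and reach 20 points in size. By this, 130 of 231 exon sites tested were lower and 0 higher (likewise 0 higher by unadjusted p under 0.05 and by limma). The background over all sites tested was 38.1% lower and 0% higher. A fit on the wild-type and Uhrf1-/- libraries alone, the libraries used in the block fit given next, called 120 exon sites lower. No exon site was called when any of the 4 libraries was left out (119 to 141 lower at an unadjusted p under 0.05), and 41 were called with the replicate number as a block.

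Levels in Uhrf1-/- were low at most exon sites and nil at some. Of 651 exon sites with at least 10 reads in both Uhrf1-/- libraries, 399 (61.3%) were under 20% in both, 159 (24.4%) had no methylated read in either, and 2 (0.307%) were over 50% in both. Residual methylation followed the wild-type level: sites classed on the first wild-type library as over 80% averaged 15.6% in Uhrf1-/- (204 sites, 86.1% in the second wild-type library), those at 20% to 80% averaged 11.1% (165 sites, 69.7%), and those under 20% averaged 5.71% (49 sites, 15.2%). In the 3KR rescue these classes stood at 29.3%, 17.7% and 5.56%, and in the wild-type rescue at 75.5%, 60.5% and 16.4%. Classing on one wild-type library and reading the level in the other keeps the shared counting error out of the comparison.

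To gain depth, reads were summed over regions, that is chains of at least 3 exon sites with at least 30 reads in every library of the table. Of the 521 chains 88 passed, spanning 21 to 163 bp with 30 to 583 reads per library. A region listed at 0% in a library still allows up to 10%, since at least 30 reads were required. Median levels over the 88 regions were 76.99% and 77.4% in wild type, 10.2% and 10.6% in Uhrf1-/-, then 69.5% for the wild-type rescue and 19.07% for the 3KR rescue. In the region test, fitted on all 1311 regions of the table, 71 of the 88 exon regions were lower in Uhrf1-/- and 0 higher (0 higher also at an unadjusted p under 0.05 and by limma). The background was 57.4% lower and 0% higher. By size alone, 77 exon regions were at least 20 points lower, beside 59.8% of all regions. In 82 exon regions (93.2%) each Uhrf1-/- library lay below each wild-type library, as did 69.5% of all regions. Of 69 regions over 50% in wild type 66 were called, and of 10 between 20% and 50% 5 were. The other 9 were under 20% in wild type, where a fall of 20 points is not possible. Among regions over 50%, the median share of the wild-type level left was 15.2% for exons and 16.4% for all classes.

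**Figure D3:**
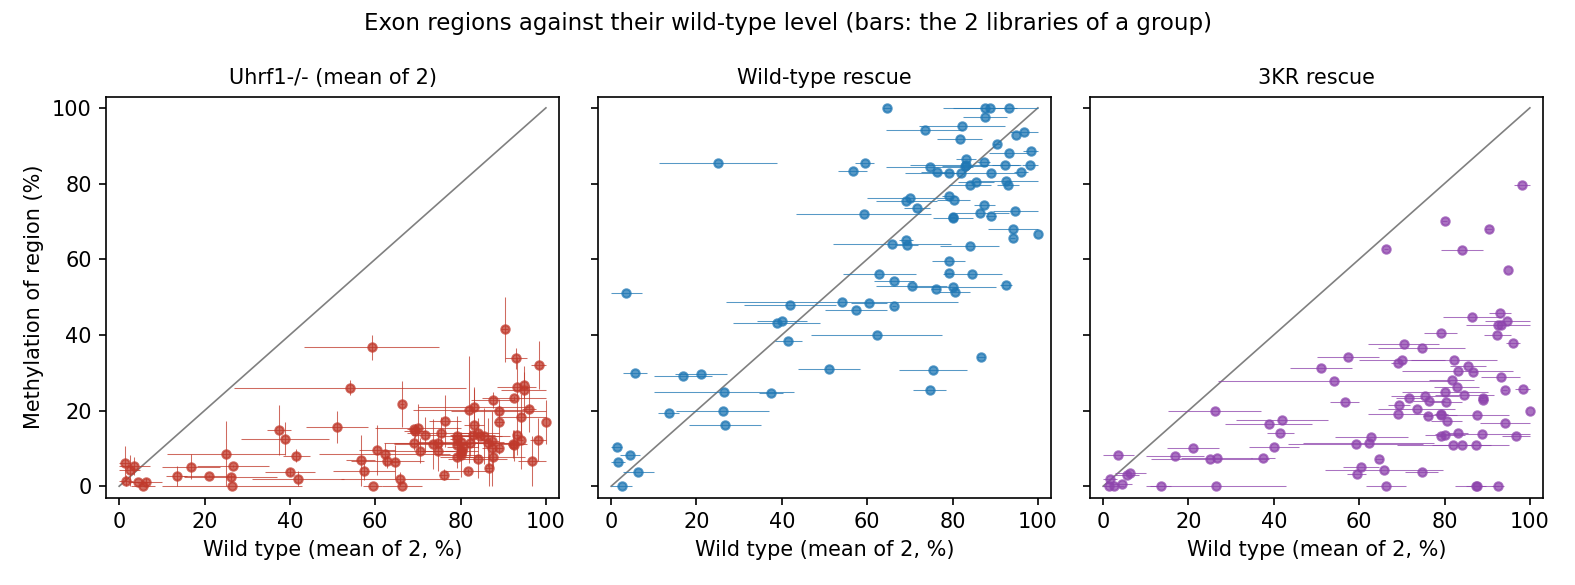
Methylation of the 88 exon regions (y axis, %) in Uhrf1-/-, the wild-type rescue and the 3KR rescue against their wild-type mean (x axis, %), with bars for the 2 libraries of a group and a grey line of equality. In Uhrf1-/- most regions lie low (medians 10.2% and 10.6%). In the wild-type rescue they scatter about the line, and in the 3KR rescue most lie low (median 19.07%) with some high.

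Of the 10 largest called falls, the 8 described here ran from -90.2 to -79.7 points. At Tuba3a, an alpha-tubulin gene, whose close copy Tuba3b lies elsewhere in the genome, the 4-site region chr6:125280983-125281039 (mm10) had 93.5% and 100% in wild type, 13.2% and 0% in Uhrf1-/-, with 93.5% for the wild-type rescue and 13.2% for the 3KR rescue (edgeR adjusted p = 2.27e-06). Here the wild-type rescue lay within the wild-type range and the 3KR rescue within the Uhrf1-/- range. Nfasc, which encodes the neuronal adhesion protein neurofascin, departed from that: chr1:132588143-132588197 had 100% and 96.2% in wild type, 6.78% and 17.9% in Uhrf1-/-, with 84.8% for the wild-type rescue and 79.5% for the 3KR rescue (31 of 39 reads, 95% Wilson interval 64.5% to 89.2%). Such intervals cover counting error only, since the labels name no molecular identifiers.

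Notch2, which encodes a receptor for Delta and Jagged ligands, had the lowest level in the wild-type rescue among the 8. At chr3:98146476-98146512 wild type had 85.7% and 87.5%, Uhrf1-/- 9.38% and 0%, the wild-type rescue 34.3% (Wilson interval 20.8% to 50.8%) and the 3KR rescue 30.2% (18.6% to 45.1%). Both rescues were above Uhrf1-/- and far below wild type, and their intervals overlap. The other regions among the 8 lay in Ulk3, which encodes a protein kinase, Tubg1, which encodes the gamma-tubulin that nucleates microtubules, Il4ra, the interleukin-4 receptor alpha chain, Gtf2ird2 and 4930438A08Rik. In Tubg1, levels were 95.7% and 89.1% in wild type, 14.9% and 7.41% in Uhrf1-/-, with 84.9% for the wild-type rescue and 40% for the 3KR rescue. Il4ra, at chr7:125577719-125577752, had 93.7% and 92.9%, 8.33% and 18.8%, 100%, and 42.6% in the same order. In both the 3KR rescue lay above the Uhrf1-/- libraries and below the wild-type rescue.

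At the other end, some exon regions kept a sizeable part of their methylation without Uhrf1. The 10 regions over 50% in wild type that kept most retained from 62.0% down to 26.7% of the wild-type level. Lpcat3, a lysophospholipid acyltransferase gene, kept 45.9%: chr6:124699271-124699319 had 89.5% and 91.2% in wild type, 50% and 32.9% in Uhrf1-/-, with 90.6% for the wild-type rescue and 68.0% for the 3KR rescue (edgeR adjusted p for Uhrf1-/- against wild type = 0.0026). The groups did not overlap there, and the 3KR rescue lay between them. Ttn, which encodes the muscle protein titin, kept 36.3%: chr2:76758763-76758891 had 95.6% and 90.3%, then 31.0% and 36.5%, with 79.5% for the wild-type rescue and 45.8% for the 3KR rescue.

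Kmt2d encodes a histone H3 lysine 4 methyltransferase, and its region chr15:98839603-98839744 kept 32.7%. Levels were 66.7% and 65.8% in wild type, 27.7% and 15.6% in Uhrf1-/-, with 47.8% (36.3% to 59.5%) for the wild-type rescue and 62.8% for the 3KR rescue (47.9% to 75.6%). This was the largest excess of the 3KR rescue over the wild-type rescue, 15.0 points, with overlapping intervals and an edgeR adjusted p of 0.693. The fall in Uhrf1-/- had an adjusted p of 0.023, which became 0.0605 without the first wild-type library, 0.109 without the second and 0.0950 without the second Uhrf1-/- library.

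The 2 regions that kept most rest on wild-type libraries that differ from each other. Myo18b, an unconventional myosin gene, had 75% and 43.3% in wild type against 40% and 33.3% in Uhrf1-/- (adjusted p = 0.348). Plekhm1, which encodes a lysosomal trafficking adaptor, had 26.8% and 81.3% in wild type against 28.0% and 24.2% (adjusted p = 0.130, and 0.0175 without the first wild-type library). Rptor, a subunit of the mTORC1 kinase complex, was the third region over 50% not called, with 43.8% and 58.2% against 20% and 11.4% (adjusted p = 0.0513, and 0.0473 by limma). The remaining 4 of the 10 lay in Col6a6, Slc12a9, Pde4d and Fat1 and were called, with Fat1 at an adjusted p of 0.0561 without the first Uhrf1-/- library. No exon region rose by as much as 10 points.

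**Figure D4:**
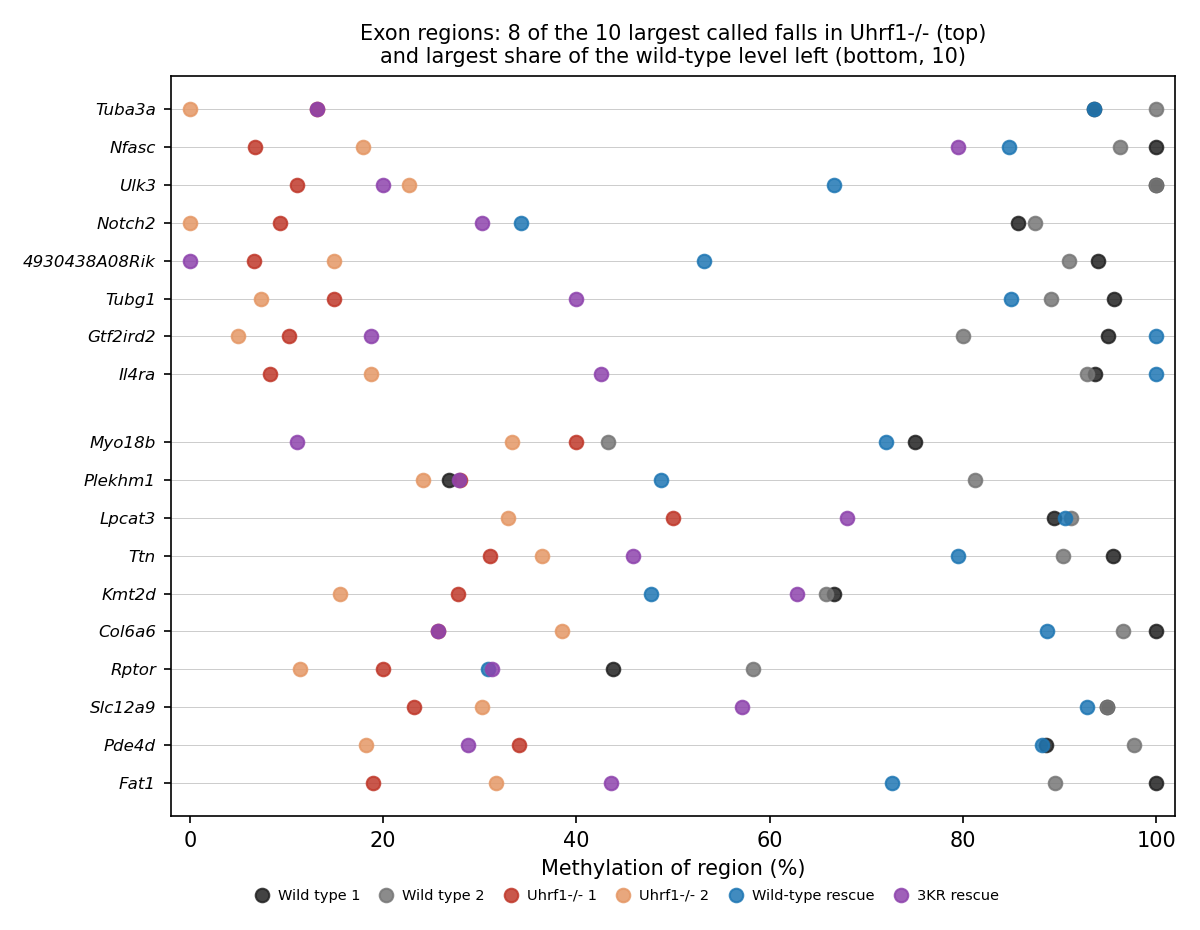
Methylation (x axis, %) in each of the 6 libraries of the rescue table for 18 exon regions named by gene (y axis): 8 of the 10 largest called falls in Uhrf1-/- (top) and the 10 regions over 50% in wild type that kept the largest share (bottom). In the top set wild type (black, grey) and Uhrf1-/- (red, orange) stand far apart, and the 3KR rescue (purple) is at or under 42.6% except at Nfasc, where it reached 79.5%.

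Most exon methylation was back in the wild-type rescue. The wild-type rescue exceeded Uhrf1-/- by 49.0 points on average. It was at least 20 points higher at 1001 exon sites (79.7%, against 60.7% of all sites) and at least 20 points lower at 6 (0.478%, against 0.445%). Of intron and intergenic sites outside islands and shores, 77.8% and 75.8% were higher by this size. The mean over exon sites was higher on 19 of 19 autosomes, by 26.0 to 58.9 points. Of the 88 regions 63 were called higher and 0 lower (edgeR; 0 lower at an unadjusted p under 0.05 and by limma), with 47.6% of all regions called higher and 0% lower. By size alone 76 exon regions were at least 20 points higher, beside 59.7% of all regions. The single rescue library was assumed to vary like the replicated groups. Leaving out the first or the second Uhrf1-/- library gave 0 calls, with 59 and 62 exon regions higher by unadjusted p under 0.05.

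E2f7, which encodes a repressor of the E2F family, showed the largest gain. Its 7-site region chr10:110782507-110782595 had 63.6% and 65.7% in wild type, 10.9% and 2.04% in Uhrf1-/-, with 100% (41 of 41 reads, 91.4% to 100%) for the wild-type rescue and 7.14% for the 3KR rescue. The wild-type rescue was the highest library there, above wild type. Asl, the gene of the urea cycle enzyme argininosuccinate lyase, was alike at chr5:130022956-130023083: 57.1% and 61.7% in wild type, 0% and 0% in Uhrf1-/-, with 85.4% (72.8% to 92.8%) for the wild-type rescue and 3.17% for the 3KR rescue. Gtf2ird2, Eno2, Tuba3a, Il4ra, Dync1h1 and 1 of 2 regions in Cox15 followed, each with 91.8% to 100% in the wild-type rescue. Of the 8 regions with the least gain, 5 were at or under 10% in both wild-type libraries, namely those in 4930527F14Rik, Tjp3 and Efnb2, the other Cox15 region and 1 of 2 in Myh14. In 6 exon regions all 6 libraries stayed under 20%.

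Against wild type, the wild-type rescue fell short on average but with changes both ways. The mean difference was -5.20 points (-4.34 and -6.06 points against the first and the second wild-type library alone), negative on 17 of 19 autosomes. It was -10.3 points at the 164 exon sites with at least 10 reads in every library and -15.1 points at the 8 with at least 20. It was at least 20 points lower at 328 exon sites (26.1%, against 20.1% of all sites) and at least 20 points higher at 189 (15%, against 11.1%). Of intron and intergenic sites outside islands and shores, 27.2% and 26.8% were lower and 11.9% and 10.2% higher by this size. As given above, 18.1% and 22.6% of exon sites differed by this much between the wild-type libraries. Of the 88 regions 44 lay below both wild-type libraries, 20 above both and 24 between them. Below both is 50% of exon regions against 39.1% of all regions, and above both 22.7% against 28.4%. edgeR called 0 exon regions in either direction (by unadjusted p under 0.05, 4 lower and 3 higher, and 0 by limma, with 5 and 4), against 0.0782% of all regions lower and 0% higher.

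The extremes were large all the same. By size, 16 exon regions were at least 20 points lower and 7 at least 20 points higher, against 11.5% and 6.03% of all regions. Lowest after Notch2 were Gm33814 at chr4:128873014-128873075, with 70.7% and 78.6% in wild type and 25.5% (18.2% to 34.3%) in the wild-type rescue, and Lamb2, a laminin chain gene of basement membranes, with 83.3% and 67.4% against 30.8% (20.9% to 42.8%). Highest was Sytl1, a synaptotagmin-like gene, where chr4:133256490-133256544 had 11.1% and 38.9% in wild type, 17.2% and 0% in Uhrf1-/-, 85.4% (77.4% to 91.0%) for the wild-type rescue and 7.09% for the 3KR rescue. Ksr1, a scaffold of the MAP kinase pathway, at chr11:79014751-79014853 had 7.14% and 0% in wild type, 3.08% and 7.69% in Uhrf1-/-, 51.1% (37.2% to 64.7%) for the wild-type rescue and 8.33% for the 3KR rescue. Both were thus high in the wild-type rescue library alone of the 6, with an adjusted p of 0.273 and 0.284 against wild type.

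The 3KR rescue lay a little above Uhrf1-/- on average and far below wild type. It exceeded Uhrf1-/- by 7.65 points on average with a median of 0, and by 0.613 points at the 8 exon sites with at least 20 reads in every library. It was at least 20 points higher at 315 exon sites (25.1%, against 18.3% of all sites) and at least 20 points lower at 86 (6.85%, against 4.54%). Of intron and intergenic sites outside islands and shores, 24.6% and 23.1% were higher by this size. The 2 Uhrf1-/- libraries differed by this size at 12.6% of exon sites one way and 15.3% the other. Of the 88 regions, 55 were above both Uhrf1-/- libraries, 25 between them and 8 below both. Above both is 62.5% of exon regions against 47.3% of all regions, and below both 9.09% against 13.7%. edgeR called 0 higher and 0 lower (7 and 1 at an unadjusted p under 0.05, and 0 by limma, with 12 and 2), with 0.235% of all regions called higher and 0% lower. The smallest adjusted p among exon regions was 0.290.

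By size, 16 exon regions were at least 20 points higher in the 3KR rescue than in Uhrf1-/- and 2 at least 20 points lower, against 10.3% and 0.61% of all regions. After Nfasc (67.1 points) the largest gains were at Pmfbp1, a gene needed for sperm head-to-tail assembly, with 79.5% and 80.6% in wild type, 11.3% and 6.67% in Uhrf1-/-, 71.1% for the wild-type rescue and 70% (54.6% to 81.9%) for the 3KR rescue, and at Peg10, an imprinted gene expressed from the paternal copy. At Peg10, chr6:4755845-4755893 had 89.1% and 79.2%, 17.9% and 10.1%, 79.5%, and 62.5% (45.3% to 77.1%) in the same order. At Nfasc and Pmfbp1 the intervals of the rescues overlapped, and both rescues were far above both Uhrf1-/- libraries. The 2 regions lower by 20 points were Myo18b, at 11.1% in the 3KR rescue against 40% and 33.3%, and Plxna4, a semaphorin co-receptor gene.

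The direct comparison of the rescues had the 3KR rescue far below. The mean difference was -41.4 points, negative on 19 of 19 autosomes. The 3KR rescue was at least 20 points lower at 914 exon sites (72.8%, against 55.6% of all sites) and at least 20 points higher at 34 (2.71%, against 1.92%). Intron and intergenic sites outside islands and shores were close to this, with 69.9% and 69.8% lower by this size. The 3KR rescue was the lower of both in 84 of 88 exon regions. The share of all regions by this rule is not given here, so the count is no trait of exons. In 69 exon regions the 3KR rescue was lower by at least 20 points and in 0 higher, against 56.1% and 0.229% of all regions. edgeR called 18 exon regions lower and 0 higher (39 and 0 at an unadjusted p under 0.05), with 12.3% of all regions called lower and 0% higher. limma called 4 lower and 0 higher, and edgeR called 0 when the first or the second Uhrf1-/- library was left out, 12 without the first wild-type library and 16 without the second. This comparison sets 1 clone against 1 clone, with the spread borrowed from the other groups, so a difference between clones and one between the proteins cannot be told apart.

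Plxna4 showed the widest gap. Its 6-site region chr6:32152844-32152925 had 82.4% and 92.9% in wild type, 25% and 20.7% in Uhrf1-/-, with 97.6% for the wild-type rescue (91.7% to 99.3%) and 0 of 36 methylated reads for the 3KR rescue, which allows up to 8.33% (edgeR adjusted p = 9.12e-04 between the rescues). The 3KR rescue was the lowest library of the 6 there. Auh, a mitochondrial hydratase gene of leucine breakdown, at chr13:52907398-52907484 had 100% and 77.8%, 21.4% and 18.3%, 100%, and 13.9% in the same order (adjusted p = 0.0045). Klhl31, a kelch-family gene, at chr9:77650316-77650393 had 85.7% and 88.9%, 12.9% and 10.9%, 85.6%, and 11% (adjusted p = 0.0245), with the rescues close to wild type and Uhrf1-/- in turn. E2f7, Asl, Gtf2ird2, Tuba3a and Sytl1 made up the 8 largest. limma kept Plxna4, E2f7, Asl and Gtf2ird2 among these and lost the others (adjusted p from 0.0764 to 0.128). Besides Kmt2d, the smallest differences between the rescues, from -4.37 to 0.399 points, included Rptor (30.9% and 31.2%), Pmfbp1, Notch2, Efnb2 and 1 of 2 Myh14 regions, the last pair lowly methylated in all 6 libraries.

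In the knockdown table, exon sites stood somewhat lower in the Mof knockdown library than in wild type. The mean was 66.7% and 69.1% in wild type (67.9 ± 1.74, SD, n = 2) and 56.6% in the knockdown, a difference of -11.3 points (-10.1 and -12.5 points against each wild-type library alone). It was negative on 19 of 19 autosomes, from -16.4 to -3.10 points. Sites over 80% made up 45.5% and 48.7% in wild type and 33.7% in the knockdown. The knockdown was at least 20 points lower at 474 exon sites (33.1%, against 25.7% of all sites) and at least 20 points higher at 137 (9.57%, against 7.56%). Of intron and intergenic sites outside islands and shores, 32.0% and 30.4% were lower by this size. Between the wild-type libraries 17.1% of exon sites were lower and 22.2% higher by this size. At intron sites outside islands and shores the mean difference was -11.3 points as well, and at intergenic sites -10.3 points.

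The knockdown difference was spread over the distance classes, from -12.9 points at 1 to 2 kb to -9.84 points at 5 to 10 kb. It was -13.1 points at 995 sites annotated only as exon and -7.32 points at 437 also listed as intron. Sites over 80% in the first wild-type library kept 86.3% of the level seen in the second (74.9% against 86.7%, 253 sites), those at 20% to 80% kept 72.7% (204 sites) and those under 20% kept 64.2% (73 sites). Of 123 exon regions (30 to 394 reads per library) 77 lay below both wild-type libraries, 36 between them and 10 above both. Below both is 62.6% of exon regions against 50.5% of all 1805 regions of that table, and above both 8.13% against 13.4%. The median region difference was -9.97 points, beside a median gap of 10.4 points between the wild-type libraries. edgeR called 0 of the 123 in either direction (by unadjusted p under 0.05, 10 lower and 1 higher, and 0 by limma, with 13 and 2), as it did of all regions (0%). The smallest adjusted p was 0.567, and the spread in this fit rests on the 2 wild-type libraries. By size, 35 exon regions were at least 20 points lower and 3 at least 20 points higher, against 17.8% and 0.72% of all regions.

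**Figure D5:**
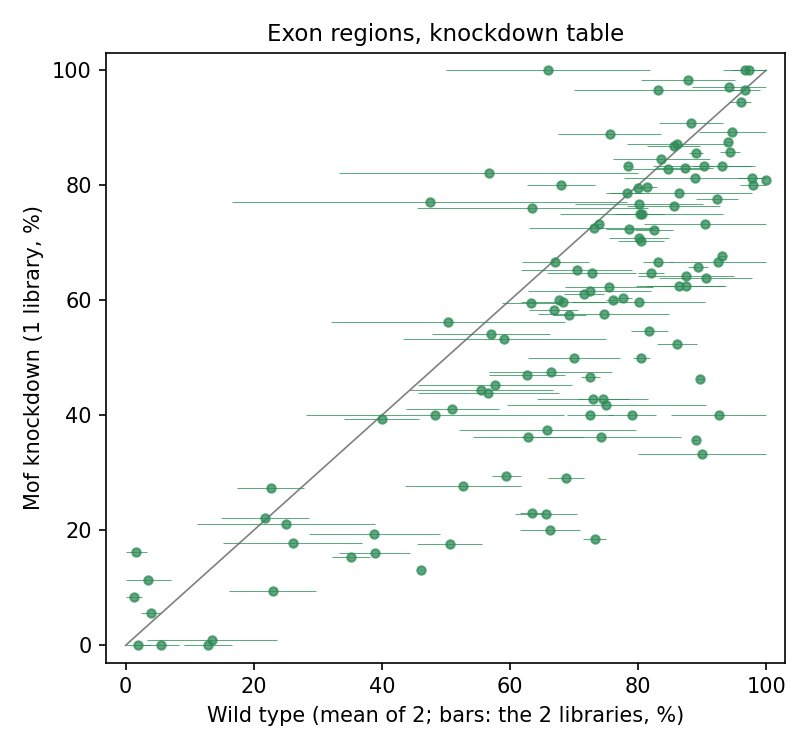
Methylation of 123 exon regions in the Mof knockdown library (y axis, %) against the mean of the wild-type libraries (x axis, %; bars join both libraries), with a grey line of equality. The cloud sits below the line, with a median difference of -9.97 points, and the wild-type bars are often as long (median gap 10.4 points).

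The lowest knockdown regions lay well under both wild-type libraries. Pabpc1l, a poly(A)-binding protein gene of oocytes, had 80% and 100% in wild type and 33.3% in the knockdown (21.7% to 47.5%) at chr2:164049987-164050077. Ptpn1, a tyrosine phosphatase gene of insulin signalling, had 71.4% and 75% against 18.6% (11.2% to 29.2%) at chr2:167977213-167977344. Eif4e1b, Krtap16-1, Tlcd3a, Yeats4 and E2f7 were also among the 8 lowest, with differences of -52.6 to -40.5 points, and none of the 8 passed adjustment. Plekhm1 and Chga were among the highest, at 77.1% and 82.1% in the knockdown, where the wild-type libraries themselves stood at 16.7% and 78.3%, and at 33.3% and 80%.

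The groups against wild type share their wild-type libraries, so their values are given side by side. At the 785 exon sites of both tables, wild type averaged 66.5 ± 1.26% (SD, n = 2), Uhrf1-/- 13.5 ± 0.52% (SD, n = 2), the 3KR rescue 20.3%, the wild-type rescue 61.3% and the knockdown of Mof 53.8%. Of these sites 198 (25.2%) were at least 20 points below wild type in the wild-type rescue. In the Mof knockdown 276 (35.2%) were, and in the 3KR rescue 608 (77.5%). At least 20 points above wild type were 116, 70 and 8 in the same order. The shares over all sites that both tables hold are not given here. In the authors' deposited table, at a q-value under 0.05 and at least 20 points, 1042 exon sites were lower than wild type in Uhrf1-/- (83.0%, against 61.3% of all sites) and 2 higher (0.159%, against 0.269%). For the 3KR rescue the authors' deposited table had 897 lower (71.4%, against 53.5%) and 9 higher (0.717%, against 0.935%). For the wild-type rescue the authors' deposited table had 207 lower (16.5%, against 13.5%) and 101 higher (8.04%, against 6.54%). For the Mof knockdown the authors' deposited table had 225 of 1432 lower (15.7%, against 12.3%) and 32 higher (2.23%, against 1.98%).

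Gene families gave few exon sites each, and lists of genes for the methylation machinery, the germline, pluripotency and lineage transcription factors had 0 in the rescue table. Pluripotency had 2 sites in the knockdown table, both in Klf5 and at 0% in all 3 libraries (38 and 33 reads in wild type and 16 in the knockdown). Beside the mean of all exon sites (67.5% in wild type, 13.3% in Uhrf1-/-, 62.3% and 20.9% in the rescues), 19 sites of 6 collagen and laminin genes had 81.7%, 18.9%, 61.3% and 16.9%. Sites in 5 ion channel genes (20 sites, 8 of them in the calcium channel subunit gene Cacng4) had 83.3%, 16.0%, 78.2% and 18.8%. At least 20 points lower in Uhrf1-/- were 17 of the 19 collagen and laminin sites and 19 of the 20 ion channel sites, and 2 of 2 regions of each list were called lower, beside 83.3% of all exon sites and 71 of all 88 exon regions.

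Genes of motor proteins had a low mean in wild type. Their 26 sites in 7 genes averaged 47.7% in wild type, 14.3% in Uhrf1-/-, then 57.2% for the wild-type rescue and 10.8% for the 3KR rescue. Of these 17 were at least 20 points lower in Uhrf1-/-, and 1 of 4 regions was called lower, beside the same 83.3% and 71 of 88. They were also uneven: Dnah8, an axonemal dynein gene, had 8.33% and 3.33% in wild type and 30% in the wild-type rescue, while Dync1h1, the heavy chain of cytoplasmic dynein, had 64.4% and 82.5%, and 94.3%. The 17 sites of 7 chromatin regulator genes had 69.1%, 14.3%, 62.2% and 29.2% in the order used above. Of these Kmt2d supplied 6, at 66.1% in the 3KR rescue, and Arid1a, a subunit of the BAF remodelling complex, supplied 4 at 0% there. The 10 sites of 3 solute carrier genes had 75.3%, 24.5%, 78.1% and 35.9%, and the 5 sites of 2 zinc finger genes 56.6%, 8.14%, 44.7% and 33.1%.

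Of the 22 imprinted genes listed, 2 held exon sites in the rescue table. Peg10 (4 sites) and Grb10 (2 sites), which encodes a growth factor receptor adaptor, together averaged 88.3 ± 5.96% in wild type (SD, n = 2), 13.0 ± 1.10% in Uhrf1-/- (SD, n = 2), with 81.9% for the wild-type rescue and 52.6% for the 3KR rescue. Grb10 alone stood at 100% and 93.8% in wild type, 4.76% and 16.7% in Uhrf1-/-, with 86.9% for the wild-type rescue and 32.9% for the 3KR rescue. All 6 sites were lower by at least 20 points in Uhrf1-/-, beside 83.3% of all exon sites. With 2 genes and 108 reads in the 3KR rescue, this describes these sites only.

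In the knockdown table the lists were again small. The 19 exon sites of 8 chromatin regulator genes averaged 83.4% in wild type and 60.2% in the Mof knockdown, with 8 at least 20 points lower. Ep300, which encodes a histone acetyltransferase, stood at 74.2% (86.5% and 61.8% per wild-type library) and 36.1%, and Arid1a at 79.9% and 50%. These were among the larger falls of the list. Arid1b, with 5 sites the largest contributor, had 97.8% and 80%, Kdm4b 50% and 44.4%, and Smarca4 (1 site) 100% and 100%. Collagen and laminin genes (9 sites) had 73.3% and 53.2%, zinc finger genes (11 sites) 73.1% and 54.6%, ion channels (29 sites) 63.1% and 54.6%, motor proteins (47 sites) 55.8% and 48.9%, and solute carriers (11 sites) 71.0% and 67.3%. These list means all differ in the same direction as the mean over the 1432 exon sites (67.9% and 56.6%), but single sites varied. The median difference over sites was 0 for ion channels and for motor proteins. It was -17.3 points for collagens and laminins, -16.7 for zinc fingers, -15.9 for solute carriers and -11.1 for chromatin regulators. Of the solute carrier sites 5 were at least 20 points lower and 4 at least 20 points higher. Imprinted genes had 5 sites there, 3 in Gnas and 2 in Grb10, at 93.1% and 79.2%, with 2 at least 20 points lower. Beside these counts, 33.1% of all exon sites were at least 20 points lower.

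Exon sites varied within chains, and chain means varied as well. In the 195 chains of at least 3 sites, the SD between sites within a chain was 24.6 points in the second wild-type library. The SD between chain means was 26.1 points there. In the first wild-type library these were 25.02 and 28.74 points, and in the wild-type rescue 22.03 and 26.26 points. In the second Uhrf1-/- library they were 15.1 and 11 points, and in the 3KR rescue 17.8 and 16.4 points. A chain mean averages at least 3 sites, so the SDs are unlike measures. Their sizes do not tell how alike neighbouring sites are, which was not tested. Sites in the second Uhrf1-/- library had a median of 11 reads, so counting error is part of the spread. Its share was not tested.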

How the data were processed

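Libraries were double-enzyme reduced representation bisulfite libraries, per the labels' protocols. The submitters' processing notes name the tools cutadapt, Trim Galore and BSMAP 2.73 and the build mm10; settings, methylation caller and the test behind deposited p-values: not given in the sources used here. Per the file headers, the authors deposited read counts per site (total, methylated and unmethylated), the fraction of methylated reads, a p-value and q-value for each group against wild type, and a percentage-point difference, treated as a score. No deposited site was covered by under 5 reads. Percentages were recomputed here from the deposited counts. Groups came from sample titles and table columns were matched to them by name; the digit that ends the wild-type rescue column is not explained by the labels. Host genes came from RefSeq gene spans (GRCm38.p6), coding genes first, without matching exons, and no sequence was printed because no genome was used.

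Library means weighted sites equally. Sites (minimum of 10 reads in every wild-type and Uhrf1-/- library) and regions (at least 3 sites, gaps of at most 100 bp, at least 30 reads in every library) were tested with edgeR 4.0.16 (quasi-likelihood, R 4.3.3) on the whole table, with Benjamini-Hochberg adjustment; limma 3.58.1 on logit values (0.5 added to methylated and 1 to all reads) was an alternative. The fits were also run on simulated falls in Uhrf1-/- against wild type, and the outcome is not given here. Comparisons that involve a group of 1 library were not simulated. Class levels were compared with an exact sign-flip permutation test. Other alternatives changed the read minimum, pooling, the gap, the replicate block and the libraries used. Python 3.11.15, numpy 2.4.6, pandas 2.3.3, scipy 1.17.1 and matplotlib 3.10.9 were used for the rest.

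Members and gene lists were chosen with earlier results of these data known. Regions named are the 10 largest called falls and the 10 largest shares left for Uhrf1-/- against wild type, and the 8 extremes each way for other comparisons, with up to 4 genes per list; a few further genes were named for context after their values were seen. Some genes that this rule picks are not reported here.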

Additional observations from a re-analysis of the deposited data

How the results depend on the processing

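Mean differences at exon sites kept their direction under every alternative run. With at least 10 reads in every library (164 sites, 325 in the knockdown table), at least 20 reads (8 and 31 sites), pooled reads and 1 site per chain, those that moved beyond the spread between libraries were, for Uhrf1-/- minus wild type, -60.8, -61.4 and -55.9 points under the first 3, for the wild-type rescue minus Uhrf1-/- 50.5, 46.3, 50.3 and 47.9, for the 3KR rescue minus Uhrf1-/- 9.11, 0.613, 8.26 and 6.59, for the 3KR minus the wild-type rescue -45.7 (20 reads), for the wild-type rescue minus wild type -10.3 and -15.1, and for the Mof knockdown minus wild type -13.3 and -14.2 (10 and 20 reads). With a minimum of 5 reads 394 of 1227 exon sites tested were called in Uhrf1-/- (all sites, 4278 of 15463). At 20 reads 6 of 8 were (119 of 485), and with the replicate block 41 of 229 (540 of 3682). The main fit called 130 of 231 (1492 of 3917). Site fits without a library are given above.

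At a 60-read minimum, which leaves fewer regions, 7 of 7 exon regions were called for Uhrf1-/- minus wild type (all regions, 133 of 312). With no minimum 316 of 516 were (3521 of 6984). For the wild-type rescue minus Uhrf1-/- these were 4 of 7 (108 of 312) and 158 of 516 (1670 of 6984). For the 3KR minus the wild-type rescue 1 of 7 was called at 60 reads (37 of 312). With no minimum 13 of 516 were (108 of 6984). By limma there were 4 of 88 (26 of 1279), and at gaps of at most 50 bp 6 of 65 (42 of 919). Leaving out a library gave 58 to 68, 0 to 60 and 0 to 16 calls for these comparisons; fewer libraries then estimate the spread. At 10 reads the exon minus intron, intergenic and promoter levels were 3.11, 5.27 and 10.7 points, past no threshold. Differences that changed sign, given without the first and then the second Uhrf1-/- library, were Tjp3 in the wild-type rescue minus Uhrf1-/- (-0.458 and 8.76 points) and, in the 3KR rescue minus Uhrf1-/-, Akap8 (4.85 and -23.5) and Col6a6 (-12.7 and 0.0733); none was called. The cause was not tested.

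Same-numbered wild-type and Uhrf1-/- libraries did not deviate together (correlation of deviations -0.017 over 1311 regions and -0.164 over the 88 exon regions) and share only a number. The block fits of sites and regions used the wild-type and Uhrf1-/- libraries alone. With the block 71 exon regions were called, the same count as without it in the fit on all 6 libraries. For the Mof knockdown, region tests without a wild-type library were not run, since no spread between libraries would remain.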
